A study of Mus musculus with 20 samples.

Results

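Estradiol and raloxifene, agents that act on estrogen receptors, were set against each other in the utricle of ovariectomized mice: 5 libraries of the OVX + E2 group against 5 libraries of the OVX + RAL group, out of 20 libraries in the series. The libraries were chosen by their labels, and the genes by a rule on counts: of 25655 genes in the deposited tables, the 2613 with at least 10 counts in each of these 10 libraries were compared. All mice were C57BL/6J females operated on at 8 weeks of age. Both groups had been ovariectomized (OVX) and both carried a subcutaneous pellet, of estradiol at 50 µg over 60 days in the OVX + E2 group and of raloxifene at 2.4 mg over 60 days in the OVX + RAL group, so that the agent and the dose changed together and cannot be told apart. The utricle, a gravity-sensing organ of the inner ear, was dissected 4 weeks after the operation, and 1 ng of total RNA per library was read from the 3′ ends of mRNA. The OVX + v group (OVX with a vehicle pellet) and the sham + v group (sham operation with a vehicle pellet), also of 5 libraries each, are given beside the results as background. Replicates bear the library numbers of the labels, 11 to 15 for OVX + E2 and 16 to 20 for OVX + RAL. The sources used here do not say whether each library came from a separate animal. The p-values rest on the spread between these libraries, which may be technical in part.

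Estradiol is the main ovarian estrogen. It binds estrogen receptors alpha and beta, which then enter DNA-bound complexes at estrogen response elements and recruit coregulators. Raloxifene is a selective estrogen receptor modulator: a synthetic ligand of the same receptors whose effect, activating or blocking, depends on the tissue. The comparison therefore asks in which genes of the utricle the 2 ligands left different RNA levels.

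Few genes of the utricle differed between the treatments beyond the spread of the libraries. Of the 2613 genes tested by the quasi-likelihood test of edgeR, 2 passed an adjusted p of 0.05 (0.0765% of the genes tested). *Ifitm3*, an interferon-induced membrane protein that restricts the entry of viruses into cells, was lower in OVX + E2 than in OVX + RAL, the only gene past the threshold on that side (0.0383%). *Gm10800*, a predicted gene without an assigned function, was the only one higher in OVX + E2 (0.0383%). Around *Ifitm3*, all 7 interferon-stimulated genes that passed the count filter lay lower in OVX + E2, and 9 of 11 tested Schwann cell and myelin genes lay higher, but none of these others passed the threshold. At an unadjusted p under 0.05 by edgeR stood 160 genes (6.12%), 102 of them higher in OVX + E2 (3.90%) and 58 lower (2.22%). DESeq2 also called 2 genes, *Ifitm3* and *Glod4*, and so no member of any other list below.

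Among the members of the interferon-stimulated list, 5 of the 7 that passed the count filter had a promoter in the RefSeq table of GRCm38.p6, which holds 250 bases before and 50 bases after each gene's start. A core of the interferon-stimulated response element, searched on both strands as 2 runs of GAAA with any 2 bases between them, stood in 4 of these 5, against 84 of the 2080 tested genes with an entry (4.04%) and 3.99% of the 27025 gene symbols in the table. The 4 were those of *Ifitm3*, *Ifit3*, *Bst2* and *Eif2ak2*, whereas the promoter of *Lgals3bp* held no match. *Ifi27* and *Ifi27l2a* had no entry. The list was made of interferon-stimulated genes, so that this share describes the list and not the treatments. The promoters of *Ifitm3*, *Ifit3* and *Bst2* are shown as those of the 1 gene past the threshold and of 2 listed genes with values below 0, which overlapped between the groups and were highest in 1 OVX + RAL library, replicate 17. That of *Ifitm2*, a paralog of *Ifitm3* on the same chromosome with a value above 0, is shown for comparison. They are given 5′ to 3′ on the strand of the gene, with bases of the element in capitals: *Ifitm3* at chr7:141010695-141010994 (minus strand), *Ifit3* at chr19:34583279-34583578 (plus strand), *Bst2* at chr8:71537423-71537722 (minus strand) and *Ifitm2* at chr7:140955912-140956211 (minus strand).
Ifitm3: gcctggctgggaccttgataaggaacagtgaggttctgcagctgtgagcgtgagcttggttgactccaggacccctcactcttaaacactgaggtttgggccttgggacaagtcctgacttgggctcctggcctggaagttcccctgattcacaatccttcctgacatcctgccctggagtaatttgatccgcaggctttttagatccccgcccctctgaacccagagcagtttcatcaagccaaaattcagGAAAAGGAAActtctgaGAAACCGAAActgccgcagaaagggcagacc
Ifit3: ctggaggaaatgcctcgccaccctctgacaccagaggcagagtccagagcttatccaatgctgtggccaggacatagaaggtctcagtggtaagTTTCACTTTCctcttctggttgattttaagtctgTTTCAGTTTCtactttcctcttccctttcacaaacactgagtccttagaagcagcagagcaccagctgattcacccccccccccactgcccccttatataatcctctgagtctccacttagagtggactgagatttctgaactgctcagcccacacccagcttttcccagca
Bst2: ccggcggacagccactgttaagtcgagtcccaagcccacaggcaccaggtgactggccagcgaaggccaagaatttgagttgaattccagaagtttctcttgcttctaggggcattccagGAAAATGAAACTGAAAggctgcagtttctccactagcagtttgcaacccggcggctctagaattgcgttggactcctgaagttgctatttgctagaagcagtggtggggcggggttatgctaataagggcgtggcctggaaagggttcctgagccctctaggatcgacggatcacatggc
Ifitm2: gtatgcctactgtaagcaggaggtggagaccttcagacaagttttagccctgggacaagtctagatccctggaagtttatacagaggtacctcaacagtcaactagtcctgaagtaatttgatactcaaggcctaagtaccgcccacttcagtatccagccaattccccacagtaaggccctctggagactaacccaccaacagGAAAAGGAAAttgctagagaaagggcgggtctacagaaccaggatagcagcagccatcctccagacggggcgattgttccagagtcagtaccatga
The matches lay after the annotated start in *Ifitm3* and before it in the other 3. A match of letters is a description of the sequence, and whether a factor was bound there was not measured. A full estrogen response element, GGTCA and TGACC with any 3 bases between them, stood in 0.0740% of the gene symbols of the table and in 0 of the 2080 tested genes that had an entry.

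The 10 libraries differed in depth by group, which may bear on the values below. Total counts ran from 1123053 to 1507667 in OVX + E2 and from 1702313 to 2081747 in OVX + RAL, without overlap (two-sided exact permutation test, p = 0.00794, the smallest that 5 libraries against 5 allow). Genes with a count numbered 7427 to 9680 in OVX + E2 and 10103 to 10290 in OVX + RAL, and the gap remained when the counts of every library were drawn at random down to the total of the smallest (7427 to 9560 against 9867 to 10113, exact permutation p = 0.00794). Libraries 13 and 14 of OVX + E2 had the fewest genes, 7547 and 7427. Spearman's rank correlation between libraries over the tested genes had a median of 0.606 within OVX + E2, 0.757 within OVX + RAL and 0.657 between the groups. The part of these differences in the results below was not tested.

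**Figure D1:**
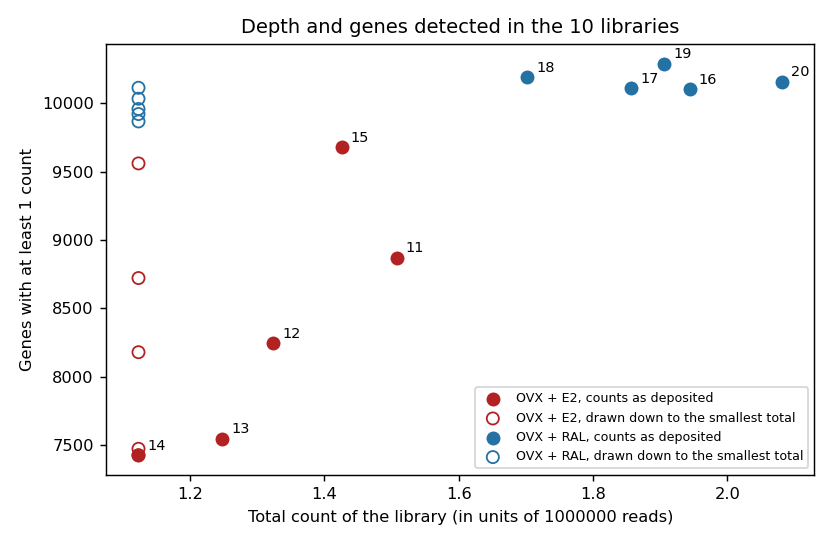
Genes with at least 1 count against the total count, in units of 1000000 reads, for each of the 10 libraries, numbered by replicate. Filled points show the counts as deposited and open points the same libraries drawn down to the smallest total; the 5 OVX + RAL libraries lie above the 5 OVX + E2 libraries in both.

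*Ifitm3* lies on chromosome 7 from 140589499 to 140590683 (GRCm39, minus strand). In counts per 1000000 counts of the library (CPM), its levels in OVX + E2 were 504, 509, 119, 451 and 290 in replicates 11 to 15, and in OVX + RAL 742, 1533, 1239, 914 and 685 in replicates 16 to 20. Every OVX + E2 library was below every OVX + RAL library. The means were 375 ± 168 (SD, n = 5) and 1023 ± 358 (SD, n = 5), and the log2 fold change of OVX + E2 over OVX + RAL was −1.45 (SE 0.305, edgeR adjusted p = 0.0389). The OVX + v libraries ran from 347 to 1130 CPM, across the gap between the treatments, and sham + v had a mean of 623 ± 159 (SD, n = 5). The adjusted p passed in 8 of 22 alternatives. In edgeR it was 0.0573 with TMM factors, and it missed the threshold without replicate 12, 13, 14, 15, 17, 18 or 19, reaching 0.379 without replicate 17, where the log2 fold change was −1.26. With filterByExpr, another count filter, the edgeR adjusted p was 0.541.

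*Gm10800* lies on chromosome 2 from 98496892 to 98497646 (minus strand), close to another predicted gene, *Gm10801*. Its CPM in OVX + E2 was 941, 994, 1336, 1037 and 224 in replicates 11 to 15, and in OVX + RAL 598, 131, 139, 203 and 102 in replicates 16 to 20. The groups overlapped through OVX + E2 replicate 15 and OVX + RAL replicate 16, each far from the rest of its group. The log2 fold change was 1.95 (SE 0.388, edgeR adjusted p = 0.0336). It passed in 7 of 22 alternatives. In edgeR the adjusted p was 0.0754 with TMM factors, and it missed the threshold without replicate 12, 13, 14, 17, 18, 19 or 20, reaching 0.379 without replicate 17. It was 0.541 with filterByExpr, another count filter, 0.496 with robust fitting and 0.203 with DESeq2. The mean was 906 ± 411 (SD, n = 5) in OVX + E2, 235 ± 206 (SD, n = 5) in OVX + RAL, 296 in OVX + v and 436 in sham + v. *Gm10801* was below the count filter, with 5.61 to 295 CPM in OVX + E2 and 1.05 to 64.0 CPM in OVX + RAL. How reads that match several genes were counted is not given in the sources used here, so that the split of reads between such neighbouring models is uncertain.

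**Figure D2:**
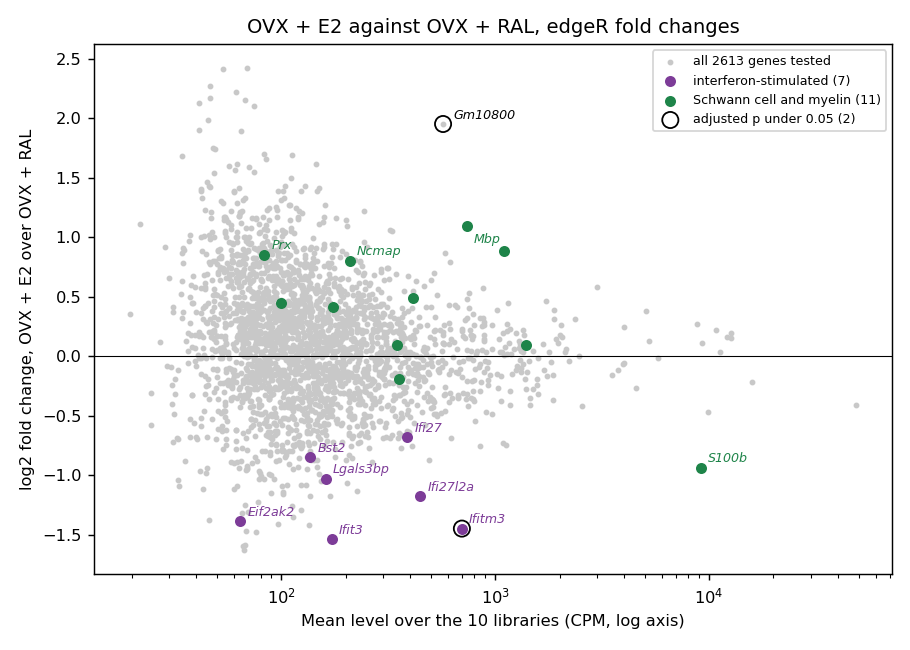
Log2 fold change of OVX + E2 over OVX + RAL against the mean level in CPM (log axis) for the 2613 genes tested, with interferon-stimulated genes in purple, Schwann cell and myelin genes in green, and rings around the 2 genes past the threshold. The 7 interferon-stimulated genes all lie below 0, and 9 of the 11 Schwann cell and myelin genes above it.

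Interferon-stimulated genes are switched on by the transcription factors that interferons activate, and their products block several steps of viral growth. Of 49 such genes in the tables, 46 were counted at least once in these 10 libraries and 7 passed the count filter. All 7 had log2 fold changes below 0, from −1.54 to −0.68 with a median of −1.18, where the median over all tested genes was 0.08. One of them, *Ifitm3*, passed the adjusted threshold, and 6 had an unadjusted edgeR p under 0.05, where 2.22% of all tested genes lay lower at that level. These 7 passed the filter and are not all members of the list.

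*Ifit3*, which binds viral RNA complexes together with its relatives, stood at 119, 65.7, 23.2, 209 and 22.4 CPM in OVX + E2 and at 86.9, 769, 130, 197 and 97.0 CPM in OVX + RAL. *Ifi27l2a*, an interferon-induced protein, stood at 150, 250.7, 366, 461 and 144 CPM in OVX + E2 and at 210, 1737, 337, 391.9 and 423 CPM in OVX + RAL. In both genes 1 library, OVX + RAL replicate 17, exceeded all others of the comparison, and the remaining 4 OVX + RAL libraries overlapped with OVX + E2. *Eif2ak2*, the double-stranded RNA-dependent kinase PKR, stood at 75.6, 21.1, 11.2, 27.6 and 42.1 CPM in OVX + E2 against 51.4, 218, 70.5, 81.3 and 45.2 CPM in OVX + RAL. *Bst2*, which tethers budding virus particles, had 97.4 ± 31.8 CPM against 175 ± 109 (SD, n = 5 each), and *Lgals3bp*, a secreted binding protein of galectin, 106 ± 24.4 against 216 ± 139. *Ifi27* had 297 ± 70.7 CPM against 477 ± 134.

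For these 6 genes the log2 fold changes were −1.54 (*Ifit3*, SE 0.569), −1.39 (*Eif2ak2*, SE 0.608), −1.18 (*Ifi27l2a*, SE 0.401), −1.03 (*Lgals3bp*, SE 0.452), −0.85 (*Bst2*, SE 0.488) and −0.68 (*Ifi27*, SE 0.291), with edgeR adjusted p between 0.487 and 0.840. Library 17 carried much of their size. Without it, the median of the 7 was −0.56 with all 7 still below 0, from −1.26 to −0.31, and 1 of them, *Ifitm3*, kept an unadjusted edgeR p under 0.05. Under the alternatives that kept library 17, the median ran from −1.40 to −0.89.

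**Figure D3:**
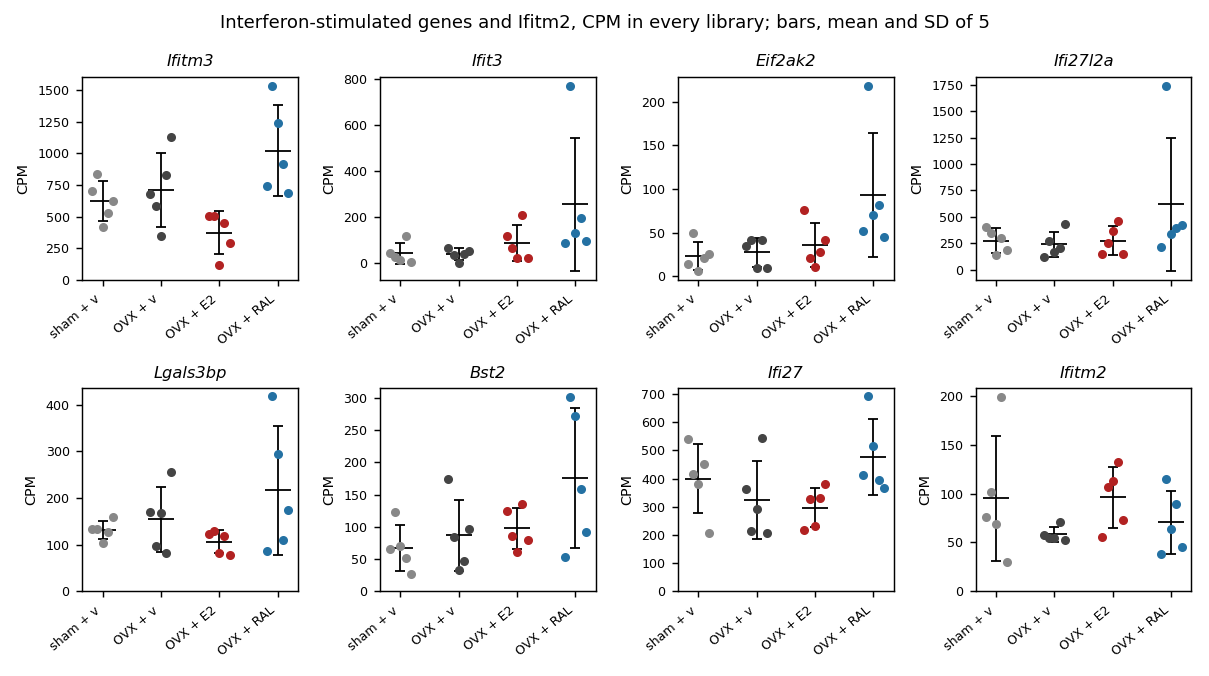
CPM of the 7 interferon-stimulated genes and of the paralog *Ifitm2* in every library of the 4 groups; points are libraries and bars the mean and SD of 5. *Ifitm3* separates OVX + E2 from OVX + RAL, while the other 6 listed genes overlap and are highest in 1 OVX + RAL library, replicate 17.

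More members entered with a weaker filter. With genes of at least 10 counts summed over the 10 libraries, 45 members were tested, and 41 of them (91.1%) had a log2 fold change below 0, where 50.5% of all 13753 genes so tested did. At an unadjusted edgeR p under 0.05 stood 14 members lower and 0 higher, where 9.10% of all genes lay lower and 5.02% higher. A member at or near 0 in OVX + E2 enters this filter only through the OVX + RAL libraries in which it is high, so that these counts describe the list and add no support to its direction. *Rsad2*, which encodes the antiviral enzyme viperin, was at 0 in all 5 OVX + E2 libraries and at 47.3, 225, 65.8, 31.0 and 2.40 CPM in OVX + RAL (edgeR adjusted p = 0.00123 under that filter), and it and *Ifitm3* were the 2 members past the adjusted threshold, where 0.0654% of all genes passed it lower and 0.0727% in either direction with 14.1% at an unadjusted p under 0.05. Without OVX + RAL replicate 17, 35 of 43 members lay below 0 (81.4%, where 49.7% of all genes did), 6 lay lower at an unadjusted edgeR p under 0.05, where 1020 of all 13644 genes did and 300 lay higher, and 0 members passed the adjusted threshold, where 7 genes passed it lower and 1 higher. The summed CPM of the 49 listed genes ran from 1260 to 2702 in OVX + E2, from 2521 to 8773 in OVX + RAL, from 1431 to 3212 in OVX + v and from 1517 to 2704 in sham + v. The list was chosen with earlier results of these libraries known, so that its direction is not independent evidence.

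The *Ifitm* genes, close paralogs whose reads can be confused, did not all lie lower in OVX + E2. *Ifitm2*, chosen after its values were seen, stood at 55.7, 106, 113, 133 and 72.9 CPM in OVX + E2 and at 38.6, 115, 64.0, 89.7 and 45.2 CPM in OVX + RAL. Its log2 fold change was 0.45 (SE 0.532, edgeR adjusted p = 0.939). *Ifitm1* was below the count filter with 0 to 172 CPM in OVX + E2 and 27.5 to 105 CPM in OVX + RAL, and *Ifitm6* and *Ifitm7* had no count in the 10 libraries. Also below the filter, *Ifitm10* had 0 to 0.701 CPM in OVX + E2 and 0 to 24.2 CPM in OVX + RAL. *Ifitm5* had 0 CPM in OVX + E2 and 0 to 11.3 CPM in OVX + RAL.

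Genes of antigen presentation, another group that interferons raise, lay on both sides of 0 among the tested genes. Of 23 listed genes 6 passed the filter, 3 on each side of 0, with a median of −0.05 and 0 past the adjusted threshold in edgeR (1 at an unadjusted p under 0.05). *B2m*, the light chain of class I molecules, had a log2 fold change of −0.47 (SE 0.230), *H2-K1*, a heavy chain, one of −0.38 (SE 0.287), and *Calr*, a chaperone of their folding, one of 0.13 (SE 0.250). With the summed filter, 16 of 21 members lay below 0 (76.2%, median −0.47), where 50.5% of all genes did, 3 of them at an unadjusted edgeR p under 0.05, where 9.10% of all genes lay lower, and none past the adjusted threshold. Members near 0 in OVX + E2 enter that filter through OVX + RAL, so that these counts add no support to a direction. Macrophage markers were low: the summed CPM of 20 genes ran from 298 to 795 in OVX + E2 and from 598 to 843 in OVX + RAL, and the 3 tested had a median of −0.32. In RNA of whole utricles, fewer cells of a type and less RNA per cell cannot be told apart.

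Schwann cells wrap the vestibular nerve fibres that enter the utricle in a sheath of myelin. Their list had 20 genes, of which 11 passed the filter, 9 with log2 fold changes above 0 and 2 below, with a median of 0.45. None passed the adjusted threshold in edgeR, and 4 had an unadjusted p under 0.05, 3 higher and 1 lower, where 3.90% of all tested genes lay higher and 2.22% lower (DESeq2 also gave 0 past the adjusted threshold). *Mbp*, myelin basic protein, stood at 652, 951, 1235, 1457 and 706 CPM in OVX + E2 and at 425, 472, 378, 585 and 489 CPM in OVX + RAL, so that every OVX + E2 library lay above every OVX + RAL library. Its log2 fold change was 1.09 (SE 0.257, edgeR adjusted p = 0.121), and it passed in 1 of 22 alternatives, without OVX + E2 replicate 11 (edgeR adjusted p = 0.0319), with adjusted p up to 0.697 in the others.

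The smaller genes of the sheath had log2 fold changes of 0.85 for *Prx* (periaxin, SE 0.559), 0.80 for *Ncmap* (a membrane protein of noncompact myelin, SE 0.391), 0.45 for *Cnp* (SE 0.497) and 0.41 for *Mal* (SE 0.424). Smaller values belonged to *Pmp22* (0.09, SE 0.312), *Cryab* (0.09, SE 0.228) and *Sox10*, the transcription factor of the Schwann lineage (−0.19, SE 0.362). *Sox10* and *Pmp22* thus did not share the values of *Mbp*. The OVX + v mean of *Mbp* was 585 ± 126 CPM (SD, n = 5), between the means of the treatments. Without OVX + E2 replicates 13 and 14, an alternative chosen after the data were seen, the log2 fold change of *Mbp* was 0.71, that of *Sox10* −0.94, that of *Pmp22* −0.45 and that of *Cryab* −0.19, 7 of the 11 lay above 0 and the median stayed at 0.45.

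*S100b*, a calcium-binding protein of Schwann and other glial cells, lay on the other side of 0. It stood at 7937, 6870, 5342, 5300 and 5827 CPM in OVX + E2 and at 19637, 19944, 8408, 6171 and 5789 CPM in OVX + RAL. Replicates 16 and 17 of OVX + RAL were far above OVX + E2, replicate 18 was just above its highest library, and replicates 19 and 20 lay within its range. The log2 fold change was −0.94 (SE 0.262, edgeR adjusted p = 0.275). With the summed count filter the same fold change had an SE of 0.0958 and an adjusted p of 1.56e-18 by edgeR. The CPM values of the libraries were the same, so that this p understates their spread. The log2 fold change was −0.69 without replicate 16 and −0.68 without replicate 17. *Slc4a11*, a membrane transporter, was also high in these 2 libraries, at 903 and 1205 CPM, against 35.5 to 119 CPM in the other 3 of OVX + RAL and 2.67 to 63.8 CPM in OVX + E2.

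**Figure D4:**
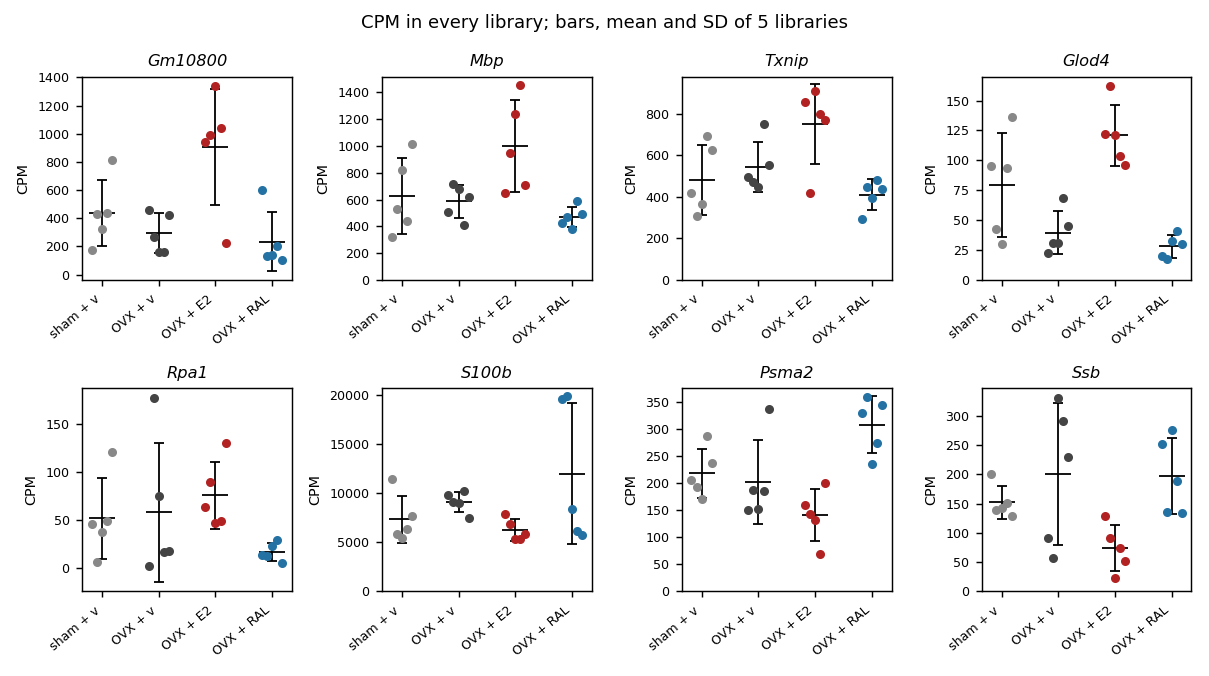
CPM of 8 genes in every library of the 4 groups; points are libraries and bars the mean and SD of 5. *Mbp*, *Glod4*, *Rpa1*, *Psma2* and *Ssb* separate OVX + E2 from OVX + RAL, whereas *Gm10800* and *Txnip* overlap through single libraries and *S100b* is high in 2 OVX + RAL libraries.

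Stromal cells and fibrocytes secrete matrix and carrier proteins into the tissue and fluid of the inner ear. Of 16 tested genes in this list 11 had log2 fold changes below 0 (median −0.21, 0 past the adjusted threshold in edgeR, 2 lower at an unadjusted p under 0.05, where 2.22% of all tested genes were). With the summed filter 19 of 25 lay below 0, where 50.5% of all genes did, and edgeR called 3 lower, *Ptgds*, *Apod* and *Slc4a11*, where it called 0.0654% of all genes lower. Members near 0 in OVX + E2 enter that filter through OVX + RAL, so that the 19 of 25 add no support to a direction. *Ptgds*, a prostaglandin synthase that carries lipids, had 41872 ± 7308 CPM against 55517 ± 15972 (SD, n = 5 each; log2 fold change −0.41, SE 0.197, edgeR adjusted p = 0.795). *Apod*, apolipoprotein D, had 8258 ± 1308 CPM against 11465 ± 5414 (log2 fold change −0.47, SE 0.225, edgeR adjusted p = 0.795). For both, OVX + RAL replicate 16 was the highest library of the comparison, at 81412 CPM and 20503 CPM. Without it the log2 fold changes were −0.23 for *Ptgds* and −0.16 for *Apod*. With the summed filter and all libraries, the same fold changes as in the main test had edgeR adjusted p of 5.45e-15 for *Ptgds* and 0.00047 for *Apod*. Their SEs were then 0.0459 and 0.0921 from the same CPM values, so that these p also understate the spread between libraries. *Coch*, cochlin, the matrix protein of fibrocytes, lay near 0 (log2 fold change −0.02, SE 0.208). All 6 tested carriers of lipophilic molecules, *Ptgds* and *Apod* among them, had log2 fold changes below 0 with a median of −0.26, and *Apoe*, the next most abundant, had −0.27 (SE 0.208).

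Receptors for the ligands themselves were too scarce for the main test. None of the 6 genes for estrogen receptors and related orphan receptors passed the count filter. *Esr1*, estrogen receptor alpha, had counts in 3 OVX + E2 libraries and 1 OVX + RAL library, up to 59.3 CPM. *Esr2*, estrogen receptor beta, was at 71.2 CPM in OVX + E2 replicate 14 and at 0 in the other 9 libraries. With the summed filter 5 of the 6 were tested, 4 above 0 and 1 below, and none passed the adjusted threshold in edgeR (adjusted p = 0.745 for *Esr1* and 0.353 for *Esr2*, the only one at an unadjusted p under 0.05). At a level of 3 counts, 1.99 to 2.67 CPM in OVX + E2 and 1.44 to 1.76 CPM in OVX + RAL, smaller amounts could not be seen, and these floors cover counting error only, since no molecular identifiers were used. *Esrrb*, an orphan receptor of ion-transporting dark cells, was present in all 10 libraries but had under 10 counts in at least 1, with 22.7 to 233 CPM in OVX + E2 and 2.06 to 194 CPM in OVX + RAL.

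Genes known to respond to estrogen in other tissues gave no call. Of 51 listed genes 14 passed the filter, 13 with log2 fold changes above 0 and 1 below, with a median of 0.29, where 58.3% of all tested genes lay above 0. None passed the adjusted threshold in edgeR, and 1 had an unadjusted p under 0.05, *Txnip*, an inhibitor of thioredoxin. *Txnip* stood at 854, 417, 910, 796 and 771 CPM in OVX + E2 and at 292, 449, 395, 481 and 438 CPM in OVX + RAL. Only OVX + E2 replicate 12 fell within the range of OVX + RAL (log2 fold change 0.87, SE 0.263, edgeR adjusted p = 0.343). The other most abundant members, the growth factor binding proteins *Igfbp5* and *Igfbp4*, had log2 fold changes of 0.43 (SE 0.255) and 0.04 (SE 0.302). With the summed count filter, 26 of 43 members lay above 0 (median 0.10), with 4 higher and 5 lower at an unadjusted edgeR p under 0.05, where 5.02% of all genes lay higher and 9.10% lower.

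Receptor coregulators, which join the receptor when a ligand is bound, lay on both sides of 0: 5 of 12 tested genes above and 7 below, with a median of −0.11 and 0 past the adjusted threshold in edgeR (0 at an unadjusted p under 0.05, and 0 past the adjusted threshold in DESeq2). The most abundant were *Hsp90ab1*, a chaperone of steroid receptors (−0.12, SE 0.207), and the RNA helicases *Ddx17* (−0.11, SE 0.253) and *Ddx5* (−0.33, SE 0.290). None of these 3 passed a test at any threshold used.

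Cholesterol is the precursor of steroid hormones and a main lipid of myelin. Of 11 tested genes of its synthesis and uptake 9 had log2 fold changes above 0 (median 0.34), where 58.3% of all tested genes did, with 2 higher at an unadjusted edgeR p under 0.05, where 3.90% of all tested genes were, and 0 past the adjusted threshold. With the summed filter 19 of 36 lay above 0 and 17 below (median 0.04). At an unadjusted edgeR p under 0.05 stood 1 of the 36, higher, where 5.02% of all genes lay higher. *Hsd17b7*, which acts in cholesterol synthesis and also converts estrone to estradiol, stood at 344, 97.4, 228, 141 and 289 CPM in OVX + E2 and at 26.2, 67.9, 105, 28.3 and 134 CPM in OVX + RAL (log2 fold change 1.61, SE 0.500, edgeR adjusted p = 0.389). *Fdps*, farnesyl diphosphate synthase, had a log2 fold change of 1.74 (SE 0.591, edgeR adjusted p = 0.487) and was named after its value was seen. *Msmo1* and *Npc2*, the other most abundant members, had log2 fold changes of 0.54 (SE 0.481) and 0.18 (SE 0.296).

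Genes of the sensory organ itself lay on both sides of 0. Of 9 tested hair cell genes, 5 lay above and 4 below 0 (median 0.21, none past the adjusted threshold or at an unadjusted edgeR p under 0.05). The median was lower in all 13 alternatives, from −0.02 without OVX + E2 replicate 11 to 0.18, with 0.04 without replicate 14 and 0.01 without replicates 13 and 14. *Pou4f3*, the survival factor of hair cells, had a log2 fold change of 0.51 (SE 0.357; 0.23 without OVX + E2 replicate 14 and 0.01 without replicates 13 and 14), *Ush1c*, a scaffold protein of the hair bundle, one of 0.21 (SE 0.335) and *Myo6*, a motor protein, one of −0.10 (SE 0.282). The 12 tested genes of otoconia and the otolithic membrane, the crystals and gel that load the hair cells, divided 6 to 6 with a median of 0.00, and *Otog*, otogelin, had 2464 ± 520 CPM against 2472 ± 984 (SD, n = 5 each). *Sparcl1* and *Sparc*, matrix proteins found in otoconia, had log2 fold changes of −0.17 (SE 0.220) and −0.28 (SE 0.235). The labelled tissue bore its markers, with summed levels of 26 hair cell genes of 1912 to 3006 CPM in OVX + E2 and 1973 to 2858 CPM in OVX + RAL, although *Atoh1* and *Tmc2* had no count.

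**Figure D5:**
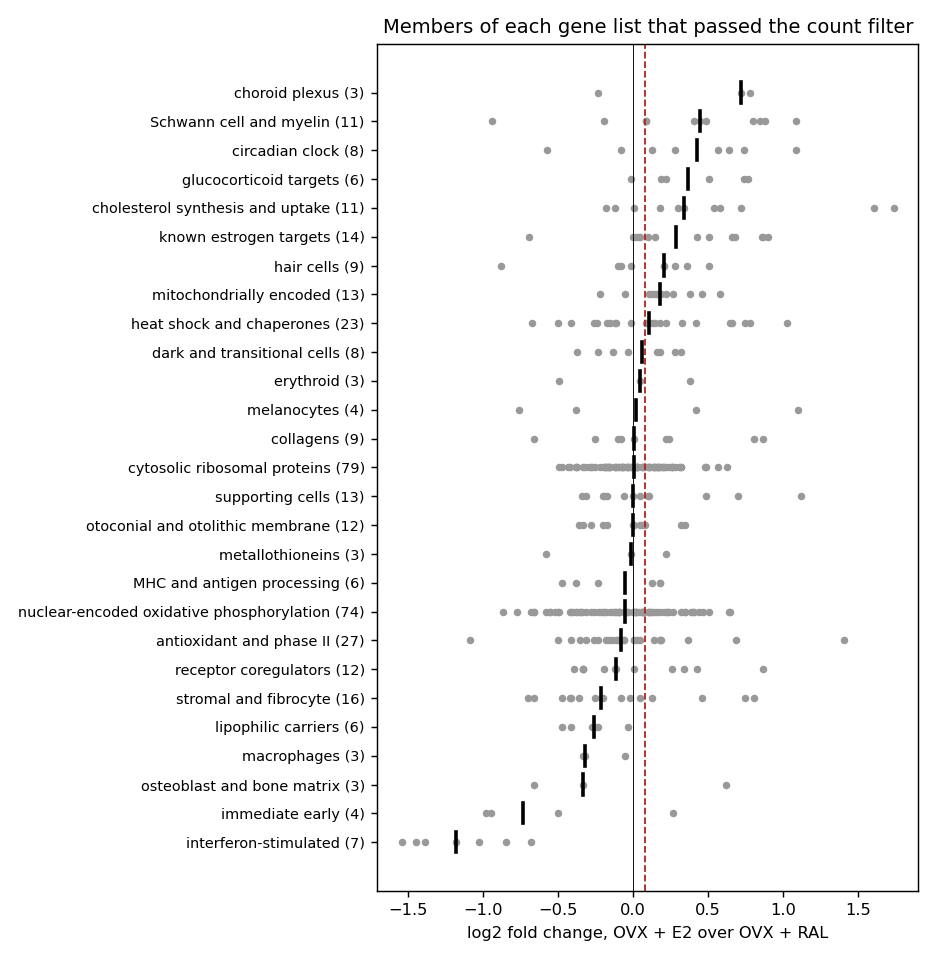
Log2 fold changes of OVX + E2 over OVX + RAL for the members of each gene list with at least 3 tested members; points are genes, black bars list medians, the number tested is in parentheses and the dashed line is the median of all 2613 genes, 0.08. The interferon-stimulated list lies lowest, at a median of −1.18, and most lists lie within 0.5 of 0.

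Transcripts of the mitochondrial genome, 13 genes, had log2 fold changes above 0 in 11 (median 0.18, range up to 0.58 and down to −0.22), where 58.3% of all tested genes did. In edgeR 0 passed the adjusted threshold and 1 lay higher at an unadjusted p under 0.05, where 3.90% of all tested genes did. With the summed filter 6 lay higher and 1 lower at that level, where 5.02% and 9.10% of all genes did, and 0 passed the adjusted threshold. The most abundant, *mt-Nd4*, *mt-Atp6* and *mt-Co3*, had −0.22 (SE 0.203), 0.15 (SE 0.196) and 0.19 (SE 0.204). The 74 tested nuclear genes of oxidative phosphorylation had a median of −0.05 and the 79 of cytosolic ribosomal proteins one of 0.01. Antioxidant and phase II genes had a median of −0.08 over 27 tested.

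*Gstp1* and *Gstp2*, glutathione S-transferases that lie side by side in the genome, did not differ between the treatments beyond their spread. In several libraries one of them was at 0 and the other high: *Gstp1* stood at 314, 0, 0, 304 and 301 CPM in OVX + E2 and at 109, 213, 0, 341 and 385 CPM in OVX + RAL, and *Gstp2* at 23.9, 326, 265, 0 and 166 CPM and at 280, 0, 422, 11.02 and 0 CPM. Two-sided exact permutation tests of log2(CPM + 1) gave p = 0.786 for *Gstp1*, 0.571 for *Gstp2* and 0.873 for their sum, and each adjusted p over these 3 was 0.873. The sum was 340 ± 76.4 CPM against 352 ± 81.6 CPM (SD, n = 5 each; edgeR log2 fold change −0.05, SE 0.363). Such a p does not show that the treatments act alike on the locus, since the reads of paralogs can be split by the counting.

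Many of the smallest p-values on the side of OVX + E2 belonged to genes of low level. The 10 genes with the smallest p among those higher in OVX + E2 had log2 fold changes up to 2.42 and edgeR adjusted p up to 0.319, and 7 of them had a mean under 100 CPM. *Rpa1*, a subunit of the single-stranded DNA-binding protein, stood at 63.0, 89.9, 47.3, 49.0 and 130 CPM in OVX + E2 and at 13.9, 12.4, 22.9, 28.9 and 5.76 CPM in OVX + RAL (log2 fold change 2.17, SE 0.594, edgeR adjusted p = 0.275). *Glod4*, a glyoxalase domain protein, stood at 122, 162, 121, 103 and 96.1 CPM and at 20.1, 17.2, 32.3, 40.9 and 30.3 CPM (log2 fold change 2.10, SE 0.550, edgeR adjusted p = 0.253). In both genes all OVX + E2 libraries were above all OVX + RAL libraries, and *Glod4* passed the adjusted threshold in DESeq2 (0.00212). *Pcna*, the clamp of DNA replication, had a log2 fold change of 2.27 (SE 0.635), *Rev3l*, a subunit of translesion polymerase zeta, one of 2.41 (SE 0.621), *Rab34*, a small GTPase, one of 2.15 (SE 0.606), *Spin1*, a histone mark reader, one of 2.22 (SE 0.647) and the predicted gene *Gm34653* one of 2.42 (SE 0.669). In these 5 the groups overlapped.

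On the other side, the 10 genes with the smallest p among those lower in OVX + E2 had log2 fold changes from −1.60 to −0.73 and edgeR adjusted p from 0.0389 to 0.517. *Psma2*, a subunit of the proteasome core, stood at 160, 143, 132, 69.5 and 201 CPM in OVX + E2 and at 330, 360, 235, 275 and 345 CPM in OVX + RAL. *Ssb*, the La protein that binds the ends of small RNAs, stood at 128, 91.4, 22.4, 74.8 and 51.9 CPM and at 251.5, 136, 277, 188 and 134 CPM. Neither overlapped between the groups, with log2 fold changes of −1.13 (SE 0.360, edgeR adjusted p = 0.421) and −1.42 (SE 0.485, edgeR adjusted p = 0.487). *Tuba1b*, a tubulin, had a log2 fold change of −0.73 (SE 0.234), *Cald1*, caldesmon, one of −0.87 (SE 0.288), *Dbi*, the acyl-CoA-binding protein, one of −0.75 (SE 0.258), *Rab12*, a small GTPase, one of −1.60 (SE 0.570) and *Il17rd*, an inhibitor of fibroblast growth factor signalling, one of −1.59 (SE 0.580). *Dbi* and *Cald1* were highest in OVX + RAL replicates 16 and 17, the 2 libraries with the most *S100b*.

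The values of the 5 libraries did not overlap between the groups for 31 genes (1.19% of those tested), 18 with all OVX + E2 libraries above (0.689%) and 13 with all below (0.498%). The largest changes upward were those of *Rpa1*, *Glod4*, *Snx18* (1.90, SE 0.578), *Arxes2* (1.89, SE 0.570) and *Ncbp2* (1.60, SE 0.573), and downward those of *Rab12*, *Ifitm3*, *Ssb*, *Psmc1* (−1.15, SE 0.559) and *Spop* (−1.14, SE 0.525). *Snx18* sorts membranes in endocytosis, *Ncbp2* binds the mRNA cap, *Psmc1* is an ATPase of the proteasome base and *Spop* an adaptor of a ubiquitin ligase. The OVX + v mean lay between the means of the treatments for all 18 genes of the first kind and for 12 of the 13 of the second. The sham + v mean did so for 17 of the 18 and for 10 of the 13. These genes were picked for a gap between the treatments, so that another group tends to fall within it. The counts therefore say nothing on the direction of either treatment. Of the 18 the OVX + v mean was nearer to OVX + E2 for 10 and nearer to OVX + RAL for 8 on the log2(CPM + 1) scale. Of the 13 it was nearer to OVX + E2 for 5 and to OVX + RAL for 8. Of the 13, 3 were proteasome subunits (*Psma2*, *Psmc1* and *Psmd4*), a group noticed after its values were seen: of its 15 tested subunits 9 lay below 0 and 6 above, with a median of −0.08.

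Genes counted in only 1 of the groups were all on the side of OVX + RAL. There were 12 with at least 10 counts in every OVX + RAL library and at most 3 in every OVX + E2 library, and 0 the other way round. The directions did not start from equal numbers, since 5095 genes had at least 10 counts in every OVX + RAL library and 2861 in every OVX + E2 library. When all libraries were drawn down to the smallest total, 4 and 0 genes met the same rule. Whether *Stard8* or *Fgfr4*, described below, were among these 4 is not reported here. The 12 were *Hps3*, *Eif5a2*, *Mettl16*, *Nkiras2*, *Trim9*, *Gstz1*, *Fgfr4*, *Bik*, *Prickle1*, *Rhod*, *Fam122b* and *Stard8*. The mean of *Stard8*, an activator of small GTPase turnover, was at least 16.3-fold lower in OVX + E2 than in OVX + RAL. *Stard8* had 13 to 130 counts in OVX + RAL and at most 1 in OVX + E2. It had 2 to 112 counts in OVX + v and 18 to 79 in sham + v. The mean of *Fgfr4*, a fibroblast growth factor receptor, was at least 10.9-fold lower. *Fgfr4* had 33 to 56 counts in OVX + RAL, 0 in every OVX + E2 library and 0 to 112 in OVX + v. Each bound sets the OVX + RAL mean against 3 counts per OVX + E2 library, a mean of 2.29 CPM. The bounds therefore hold for means and not for every library: the lowest OVX + RAL library of *Stard8* stood at 6.24 CPM. Both genes were picked by a rule on these same counts, so that the bounds are not independent of that choice. The edgeR adjusted p under the summed filter was 0.353 or more for all 12. *Cog5*, a subunit of a Golgi tethering complex, missed this rule through 1 library: it was at 0 in every OVX + E2 library and at 112, 2.15, 95.8, 129.6 and 157 CPM in OVX + RAL (edgeR adjusted p = 6.67e-06 under the summed filter, which it entered only through OVX + RAL). Its level was 19.8 to 264 CPM in OVX + v and 0 to 68.7 CPM in sham + v, with 2 sham + v libraries at 0.

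Direction and level went together over the tested genes. Higher in OVX + E2 lay 1523 genes and lower 1090 (58.3% higher, median log2 fold change 0.08), and with TMM factors 1353 and 1260 (51.8%, median 0.02). Of the 871 genes with the lowest mean level 63.9% lay higher, of the 871 in the middle 58.2% and of the 871 with the highest 52.7%. The filter of 10 counts asked for 6.63 to 8.90 CPM in OVX + E2 libraries and for 4.80 to 5.87 CPM in OVX + RAL libraries. The coefficient of variation over libraries had a median of 48.7% in OVX + E2 and 39.6% in OVX + RAL, and was larger in OVX + E2 for 1659 of the 2613 genes.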

How the data were processed

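QuantSeq 3′ mRNA libraries of mouse utricles, from 1 ng of total RNA with a RIN above 7, had been sequenced for 75 cycles. The deposited total counts are raw counts per gene, which the authors made in CLC Genomics Workbench on GRCm39 after removing the first 12 nucleotides of each read and reads under 20 nucleotides. How reads matching several genes were counted is not given in the sources used here. Columns of CPM, TPM, RPKM, fold change, p-value and FDR were not used. Of the 3 tables in one file only the first was read, and 0 columns belonged to samples outside the series.

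Groups came from the labels. Members and gene lists were chosen with earlier results of these data known. Genes with at least 10 counts in each of the 10 libraries were tested with edgeR 4.0.16 (glmQLFit and glmQLFTest, library size as column total, no TMM factors, Benjamini-Hochberg threshold 0.05) in R 4.3.3. Each SE was obtained from the log2 fold change and the F statistic, as the former over the root of the latter. The code was tested on simulated data. Single values were compared by two-sided exact permutation tests (scipy 1.17.1). Total counts ranged from 1123053 to 2081747 per library, so that 10 counts were 4.80 to 8.90 CPM. Named genes were the 10 of smallest p in each direction, the 5 of largest change without overlap in each direction, the 3 most abundant tested members of each list, the estrogen receptors, and genes named in the study or earlier tests. *Rsad2*, *Slc4a11*, *Fdps*, the *Ifitm* paralogs, the genes counted in 1 group and the remaining interferon and myelin genes were added after their values were seen. A few genes that the rule names are not reported here.

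Alternatives were TMM factors, DESeq2 1.42.0, limma 3.58.1 on log2(CPM + 1) and log2(CPM + 0.1), 2 other count filters and no filter, robust fitting, all 4 groups in 1 fit, counts drawn down to the smallest total, and leaving out each replicate. Leaving out OVX + E2 replicates 13 and 14 together, and the summed filter without OVX + RAL replicate 17, were chosen after seeing the data.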

Additional observations from a re-analysis of the deposited data

Results flagged for a closer look

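In 14 of the 104 groups of 5 values examined, 1 library stood far from the other 4 (gap to its neighbour over the group's range above 0.71). For normally distributed values chance would give about 5.2, or 1 in 20. Genes with counts in few libraries make up most of the 14. Their values are not normally distributed, so that 14 against 5.2 does not show an excess. *Gm10800* stood at 598 CPM in OVX + RAL replicate 16. *Ifi27l2a* stood at 1737 CPM and *Ifit3* at 769 CPM in OVX + RAL replicate 17, the library highest in all 7 tested interferon-stimulated genes. *Esr1* stood at 59.3 CPM in OVX + E2 replicate 13 and at 3.36 CPM in OVX + RAL replicate 20. *Esr2* stood at 71.2 CPM and *Gper1*, a membrane estrogen receptor, at 54.3 CPM in OVX + E2 replicate 14. *Amd2*, a close copy of *Amd1*, stood at 4.01 CPM in OVX + E2 replicate 13 and at 159 CPM in OVX + RAL replicate 20. *Mettl16* stood at 74.6 CPM and *Eme1* at 27.6 CPM in OVX + RAL replicate 18. *Sra1* stood at 1.99 CPM in OVX + E2 replicate 11, *Stard8* at 0.802 CPM in OVX + E2 replicate 13 and *Orc2* at 0.701 CPM in OVX + E2 replicate 15. These last 3 levels are at or under 3 counts.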

How the results depend on the processing

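The count of genes past an adjusted p of 0.05 depended on the processing. It was 0 with TMM factors (145 at an unadjusted p under 0.05), filterByExpr (151), limma with either pseudocount (186 and 181), all 4 groups in 1 fit (160) and without OVX + E2 replicates 13 and 14 (165). It was 1 with robust fitting, 2 with DESeq2 and with thinned counts, 10 with the summed filter and with no filter, and 8 with the summed filter without OVX + RAL replicate 17. Leaving out 1 replicate gave 0 to 3 calls by edgeR: 0 without 12, 13, 14, 17, 18 or 19, with 114 to 161 genes at an unadjusted p under 0.05, 1 without 15 or 20, 2 without 16 and 3 without 11. Genes without overlap numbered 125 with the summed filter, which tested 13753 genes. They numbered 119 without replicates 13 and 14 and 46 to 72 with 1 replicate left out, where fewer libraries overlap less often. No paired analysis was possible because the library numbers 11 to 20 do not repeat between the groups. Single genes near 0 turned sign. *Pmp22* was −0.00 under limma with either pseudocount, −0.45 without 13 and 14 and −0.13 to 0.24 with 1 replicate left out. *Igfbp4* was −0.02 with TMM factors, −0.01 with DESeq2 and limma, −0.04 with the summed filter without replicate 17 and −0.14 to 0.30 with 1 left out. *Otog* was 0.09 under limma, 0.11 without 13 and 14 and −0.20 to 0.16 with 1 left out. Without 13 and 14, *Cryab* was −0.19, *Ddx17* 0.03, *Ddx5* 0.02, *Coch* 0.06 and *Calr* −0.08. With 1 replicate left out, *Sox10* ran from −0.47 to 0.03, *Cryab* from −0.02 to 0.20, *Hsp90ab1* from −0.20 to 0.08, *Ddx17* from −0.24 to 0.00, *Myo6* from −0.21 to 0.03 and *Coch* from −0.18 to 0.16. The cause of these turns was not tested. Of the other values, 1417 of single genes kept direction and side of the threshold, 29 lost and 11 gained the threshold, and 363 list medians moved by less than 1 SD between libraries and 1 by more. That SD is wide for short lists: the median ran from −1.40 to −0.56 for interferon-stimulated genes, from −0.88 to 0.00 for macrophages, from −0.91 to 0.31 for erythroid, from −0.02 to 0.18 for hair cell, from 0.15 to 0.61 for clock and from −0.51 to 0.10 for bone matrix genes. At 1123053 to 1507667 counts per OVX + E2 library, genes near 10 counts carry large counting error.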

Other observations

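All 20 listed skeletal muscle genes were below the count filter. With genes of at least 10 counts summed over the 10 libraries, 18 were tested and all 18 lay lower in OVX + E2 (median log2 fold change −2.80), where 50.5% of all genes did, 6 of them at an unadjusted edgeR p under 0.05, where 9.10% of all genes lay lower, and 0 past the adjusted threshold. Genes near 0 in OVX + E2 enter this filter through the deeper OVX + RAL libraries. Without OVX + RAL replicate 17, 17 of 18 lay lower (median −2.17), where 49.7% of all genes did. Their summed level ran from 83.1 to 318 CPM in OVX + E2, from 117 to 1157 CPM in OVX + RAL, from 92.0 to 566 CPM in OVX + v and from 25.2 to 285 CPM in sham + v. The part of this RNA in other results was not tested.

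Clock genes passed the filter in 8 of 23 cases, 6 above 0 and 2 below, where 58.3% of all tested genes lay above 0. Their median was 0.43, which was 0.15 without OVX + E2 replicates 13 and 14 and up to 0.61 in other alternatives. With the summed filter 10 of 21 clock genes lay above 0 and 11 below, with a median of −0.07. *Nr1d2*, a repressor within the clock, had a log2 fold change of 1.09 (edgeR adjusted p = 0.517). Immediate early genes, which respond to stimulation and to handling of tissue, had a median of −0.73 over 4 tested genes, 3 of them below 0. With the summed filter 13 of 24 lay below 0 and 11 above, with a median of −0.30.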
